A study of Mus musculus with 18 samples.

Results

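Axon guidance ligands and receptors were followed through the differentiation of mouse neural stem cells into astrocytes, without and with the inflammatory cytokine TNF. The members were the protein-coding genes whose symbols place them among the semaphorins of classes 3 to 7, the plexins, the neuropilins, the ephrins, the Eph receptors, the Slits, the Robos, the netrins Ntn1 to Ntn5 and the Unc5 receptors. Of the 54838 genes in the count table, 68 were members: 20 semaphorins, 9 plexins, 2 neuropilins, 8 ephrins, 14 Eph receptors, 3 Slits, 4 Robos, 4 netrins and 4 Unc5 receptors. On edgeR's filter for low counts 61 of the 68 passed and were tested, and 7 (Efna1, Epha6, Epha8, Ntn5, Robo4, Sema3g and Sema4f) did not.

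RNA without its ribosomal part was sequenced in 18 libraries from 6 conditions, with 3 replicates in each. Neurospheres (NSPs) are free-floating aggregates of neural stem cells, grown here from the ventricular zone of single C57BL/6J wild type embryos at embryonic day 14 and kept proliferating with EGF at 20 ng/ml. The other conditions were plated cells from NSPs after 24 h, 72 h or 1 week in a changed medium (DMEM with 10% serum in place of a DMEM F12 medium with B27 and EGF), and cells after 24 h or 72 h in the same medium with TNF at 50 ng/ml. A change from NSPs to 24 h therefore covers the change of base medium, the loss of EGF and of the B27 supplement, the addition of serum and the attachment to a coated plate together, which cannot be told apart. The labels number the replicates but do not say whether they came from separate animals, and the study's methods speak of independent biological experiments only for its data as a whole, so p-values may measure no more than the spread between these samples, which may be technical.

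Axon guidance molecules are secreted or membrane-bound cues and the receptors with which growing axons and migrating cells read them. Secreted class 3 semaphorins act through a neuropilin that binds the ligand and a plexin A that signals, whereas most class 4 to 7 semaphorins bind plexins directly, and ephrins, which sit in the membrane, activate Eph receptor tyrosine kinases on the neighbouring cell and can signal back. Slits repel through Robo receptors, and netrins attract or repel depending on whether the receiving cell carries Dcc or an Unc5 receptor. Glia both make and read these cues, and in the brain ephrins, Ephs, semaphorins and Slits of astrocytes and their precursors are known for their part in cell positioning, synapse contacts and responses to injury.

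Total counts ranged from 12509693 to 22549627 per library. Replicate 1 of the NSP, 24 h TNF and 72 h TNF conditions stood apart from its mates: the chi-square per degree of freedom of its counts against theirs was 46.1 to 62.7, and that between the other libraries of these conditions was 4.08 to 12.5. To a lesser degree 1 week replicate 2 stood apart too (21.4 and 24.6, against 5.62 between its mates). Pairs of untreated libraries differed by 10.1 to 32.5 at 24 h and 11.4 to 32 at 72 h. RNA quality numbers, on which 10 marks intact RNA, are labelled as 3.4 to 10 over all samples and not per library, and their part in these differences was not tested. Counts of members called are given with and without replicate 1 of the NSP, 24 h TNF and 72 h TNF conditions. The summed level of 8 astrocyte markers was 5128 to 5364 CPM (counts scaled to library size with TMM, per 1e+06 counts) in NSPs, 5696 to 8145 CPM at 72 h and 2683 to 3247 CPM at 1 week, and Gfap, the astrocyte intermediate filament, was at 11.6 to 37.3 CPM in NSPs, 1855 to 3172 CPM at 72 h and 52.7 to 81.6 CPM at 1 week, so the label astrocyte at 1 week came with low Gfap. The summed level of the 8 oligodendrocyte lineage markers was 617 to 970 CPM in NSPs and 61.5 to 70.5 CPM at 72 h, and the 7 mural and fibroblast markers went from 4.10 to 10.6 CPM in NSPs to 403 to 496 CPM at 24 h, of which Acta2 alone was 401 to 494 CPM. The 6 neural stem cell and cell cycle markers summed to 2651 to 3967 CPM in NSPs and 971 to 1374 CPM at 72 h, and the 4 ependymal markers to 19.9 to 34.0 CPM in NSPs, 90.2 to 102 CPM at 24 h and 253 to 354 CPM at 72 h, with Tmem212 at no more than 3 counts in any library. The 8 microglia and leukocyte markers summed to at most 3.95 CPM in any library, with C1qa, Itgam and Ptprc at no more than 3 counts in each, and the 6 endothelial markers to at most 7.06 CPM, with Cdh5 and Cldn5 likewise. The 8 neuron markers summed to 1438 to 2093 CPM over all libraries, of which Map2 alone made up 1409 to 2075 CPM, and Nefl was at no more than 3 counts in any library. Of the 6 neuron markers tested, 4 were called lower at 1 week than in NSPs. At 24 h against NSPs 1 of the 6 was called higher, 1 lower and 4 were not called. Tubb3, a neuronal tubulin, was at 12.1 to 23.7 CPM in NSPs, 30.6 to 41.2 CPM at 24 h, 6.51 to 8.26 CPM at 72 h and 4.49 to 5.39 CPM at 1 week, and so was highest at 24 h. The list as a whole did not share that peak: Rbfox3 was at 2.35 to 3.02 CPM in NSPs and 0.839 to 1.96 CPM at 24 h. The part of these shifts in the results was not tested, and in bulk RNA fewer cells of a type and less RNA per cell cannot be told apart.

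Levels of different genes were compared as CPM per kilobase of merged exon, written CPM/kb. Plxnb2, a receptor for class 4 semaphorins, was the highest receptor of the semaphorin system in all 6 conditions, from 55.7 CPM/kb in NSPs to 116 CPM/kb at 1 week. Among the ligands of that system Sema6d, a transmembrane semaphorin, led in the 4 untreated conditions, at 23.6 CPM/kb in NSPs and 75.3 CPM/kb at 72 h, and Sema3c, a secreted one, led by its mean in both TNF conditions, at 34.1 and 67.9 CPM/kb. Libraries of Sema3c and Sema6d overlapped at 24 h with TNF (31.0 to 37.2 and 29.4 to 34.6 CPM/kb) and at 72 h with TNF (43.5 to 85.1 and 32.5 to 49.1 CPM/kb). In replicate 1 of both TNF conditions Sema6d was above Sema3c. Ntn1, the founding netrin, stood between 26.8 CPM/kb at 24 h and 72.9 CPM/kb at 72 h with TNF, while the highest Unc5 receptor never passed 1.70 CPM/kb. In the Slit system the receptor Robo2 led with 8.74 to 29.7 CPM/kb, and the highest Slit reached 1.78 CPM/kb. Among ephrin receptors Ephb3 led in NSPs (14.3 CPM/kb) and Epha4 in the other 5 conditions (17.6 to 40.0 CPM/kb), and among ephrins Efnb1 led in NSPs and at 24 h (6.04 and 7.93 CPM/kb) and Efnb2 elsewhere (5.53 to 6.86 CPM/kb). The lead among ephrins was narrow in NSPs, where Efna4 was at 5.95 CPM/kb, and at 24 h with TNF, where Efnb1 was at 5.38 CPM/kb. Libraries of the leading ephrin and the next overlapped in both. Per kilobase, then, the leading Robo was above the leading Slit in every condition, and Ntn1 was above the leading Unc5 receptor in every condition.

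**Figure D1:**
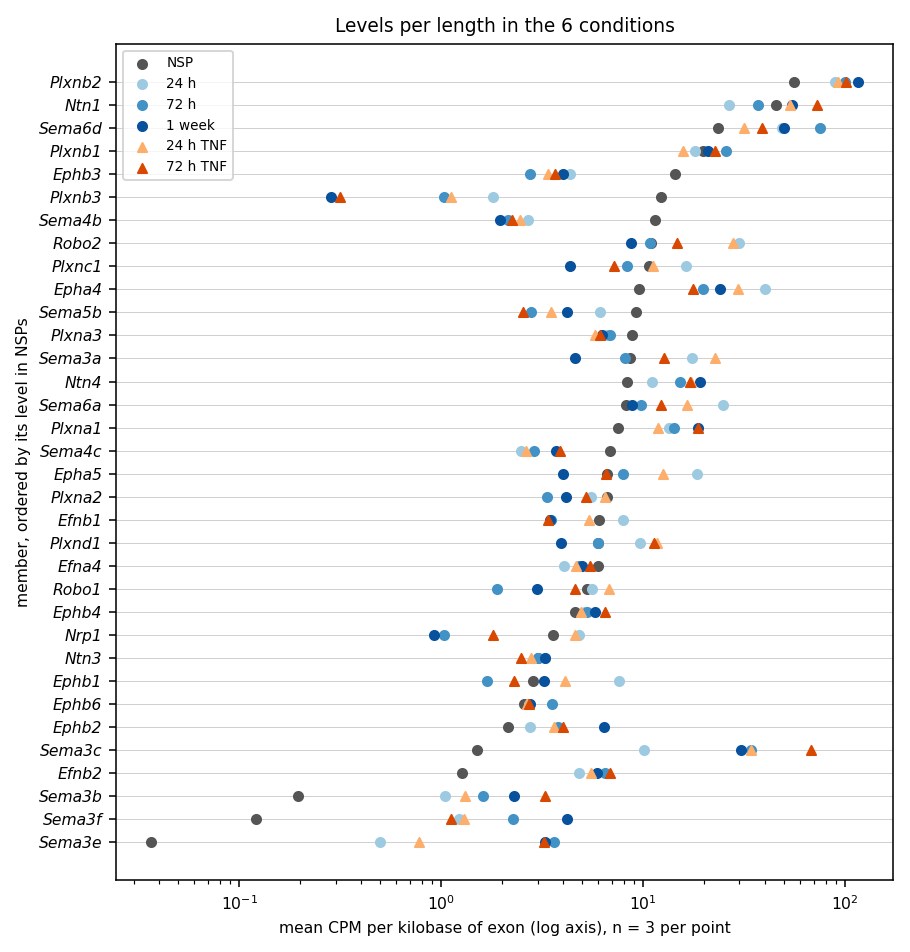
Mean level in CPM per kilobase of exon (log axis) of the 34 members that reached 3 CPM/kb in a condition, ordered by their level in NSPs, 1 point per condition (n = 3). Plxnb2 is the highest in every condition, whereas Sema3c, Sema3b, Sema3f and Sema3e start low in NSPs and lie to the right in every differentiated condition, and Plxnb3 moves to the left.

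From NSPs to 24 h, edgeR's quasi-likelihood test called 36 of the 61 tested members (59%, against 52.7% of all 20067 genes tested), 24 higher (27.2% of all genes) and 12 lower (25.5% of all genes). A gene is called here where its Benjamini-Hochberg adjusted p over all genes tested was under 0.05. The median log2 fold change of the members was 0.39, and that of all genes 0.06. From 24 h to 72 h, 32 members (52.5%, against 24.8% of all genes) were called, 7 higher (12.2% of all genes) and 25 lower (12.6% of all genes), with a median of -0.49 against -0.01. Among the 4 untreated conditions the mean level was highest at 24 h for 22 of the 61 members (36.1%, against 23% of all genes tested), in NSPs for 17 (27.9%, against 36%), at 72 h for 8 and at 1 week for 14. A rise at 24 h followed by a fall by 72 h was called for 13 of the 61 members (21.3%, against 5.15% of all genes): Sema3a, Sema6a, Sema6b, Efna5, Epha4, Epha5, Epha10, Ephb1, Slit3, Robo2, Unc5b, Unc5c and Plxnc1. The rise and the fall rest on the same 24 h libraries, for members as for all genes. As given below, the falls of Epha4, Efna5 and Slit3 were lost when certain single libraries were left out. Without NSP replicate 1 the count from NSPs to 24 h was again 36 (49.6% of all genes were called), with Sema3d (edgeR adjusted p = 0.0567) lost and Nrp2 (edgeR adjusted p = 0.00344, lower) gained. From 24 h to 72 h the count was 25 to 29 when any 1 of its 6 libraries was left out (16.9% to 25.2% of all genes).

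**Figure D2:**
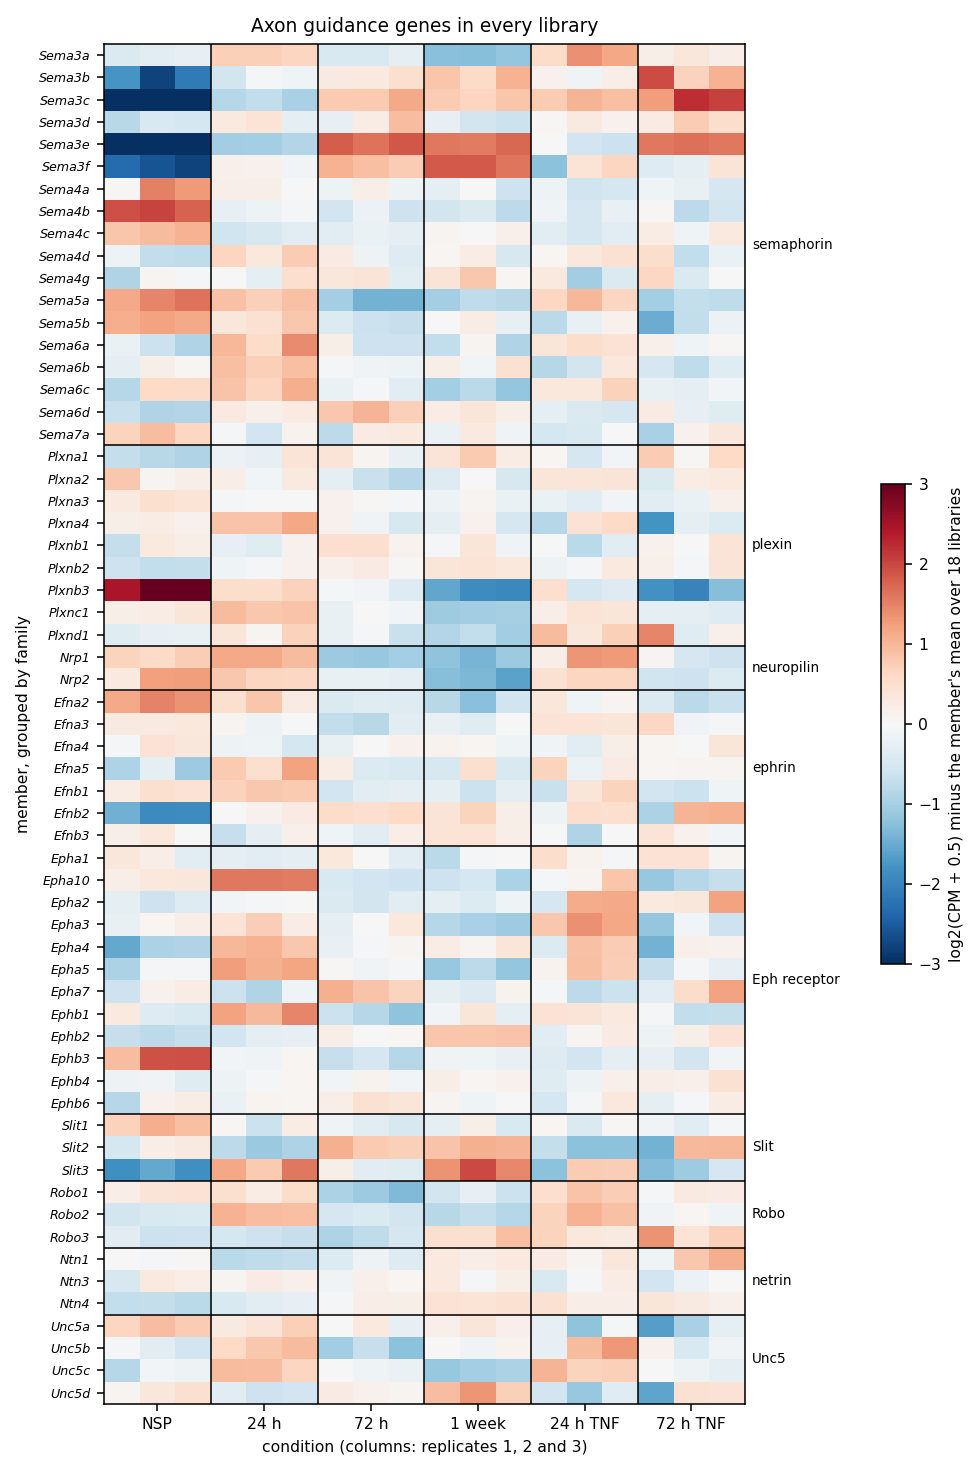
Level of each of the 61 tested members in every library, as log2(CPM + 0.5) minus the member's mean over the 18 libraries (colour), grouped by family, with the 3 replicates of a condition side by side. Sema3b, Sema3c, Sema3e and Sema3f are blue in NSPs and red in the untreated 72 h and 1 week libraries, Plxnb3 is red in NSPs and blue at 1 week, and replicate 1 of both TNF conditions is bluer than its mates in Efnb2, Epha4 and Epha5.

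Class 3 semaphorins are secreted cues, and Sema3a is the best known of them. All 6 that were tested were called higher at 24 h than in NSPs (27.2% of all genes were), with a median log2 fold change of 2.59 against 0.06 for all genes, and without NSP replicate 1 the count was 5, Sema3d being lost. At 1 week 4 of them (Sema3b, Sema3c, Sema3e and Sema3f) were called higher than in NSPs (29.6% of all genes were), and Sema3a was called lower (29.1% of all genes were). Sema3a, Sema3c, Sema3d and Sema3e lie on chromosome 5, Sema3b and Sema3f on chromosome 9, and Sema3g, which did not pass the filter, on chromosome 14. The promoters of the 4 genes on chromosome 5 are shown because these genes moved apart after 24 h although all 4 had risen by then. Each run is 250 bases before to 50 bases after the start of transcription from RefSeq (GRCm38.p6, + strand), written 5′ to 3′ with CG dinucleotides in capitals: chr5:13396534-13396833 for Sema3a, chr5:17574566-17574865 for Sema3c, chr5:12382916-12383215 for Sema3d and chr5:14025026-14025325 for Sema3e. The RefSeq starts of Sema3a and Sema3c lie inside their genes in GENCODE, and whether those starts are used in these cells was not tested.
Sema3a: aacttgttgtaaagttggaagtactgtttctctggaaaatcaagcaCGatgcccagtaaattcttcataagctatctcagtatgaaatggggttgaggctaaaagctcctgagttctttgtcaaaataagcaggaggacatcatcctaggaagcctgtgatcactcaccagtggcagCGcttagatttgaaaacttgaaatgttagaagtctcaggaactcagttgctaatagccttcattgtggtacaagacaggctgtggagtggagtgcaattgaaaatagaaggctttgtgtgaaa
Sema3c: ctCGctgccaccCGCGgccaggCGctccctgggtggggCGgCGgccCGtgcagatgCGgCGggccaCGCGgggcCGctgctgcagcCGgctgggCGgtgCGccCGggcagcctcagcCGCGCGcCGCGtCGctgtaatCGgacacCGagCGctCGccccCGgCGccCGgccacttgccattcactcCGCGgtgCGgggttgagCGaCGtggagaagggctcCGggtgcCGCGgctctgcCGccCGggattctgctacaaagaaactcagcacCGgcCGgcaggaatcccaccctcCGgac
Sema3d: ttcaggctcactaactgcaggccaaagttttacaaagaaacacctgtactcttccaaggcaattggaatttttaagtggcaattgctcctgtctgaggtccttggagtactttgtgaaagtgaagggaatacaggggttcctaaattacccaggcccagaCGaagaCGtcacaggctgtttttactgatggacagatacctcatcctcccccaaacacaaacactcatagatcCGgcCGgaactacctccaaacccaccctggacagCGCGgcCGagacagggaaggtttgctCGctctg
Sema3e: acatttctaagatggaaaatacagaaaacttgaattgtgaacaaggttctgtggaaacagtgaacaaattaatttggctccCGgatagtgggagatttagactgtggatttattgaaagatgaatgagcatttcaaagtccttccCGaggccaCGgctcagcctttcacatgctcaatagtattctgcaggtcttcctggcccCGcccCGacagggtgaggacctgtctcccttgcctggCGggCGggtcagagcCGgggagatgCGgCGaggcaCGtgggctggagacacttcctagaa

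The Sema3c window held 42 CG dinucleotides, that of Sema3e 11, that of Sema3d 8 and that of Sema3a 2, and the median over the 15130 promoters of genes tested was 19. The GC box letters GGGCGG, read on both strands, were in the windows of Sema3c and Sema3e and in 58.7% of the promoters of genes tested, and none of the 4 windows held the TATA letters TATAAA (7.66% of the promoters of genes tested).

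Sema3c (gene at chr5:17574281-17730268, + strand, GRCm38) was at 10.8, 11.4 and 10.1 CPM in the NSP libraries, 72.1, 77.4 and 66.2 at 24 h, 224, 225 and 287 at 72 h and 222, 203 and 230.2 at 1 week. It rose at each step up to 72 h with no overlap between conditions, by a log2 fold change of 2.74 ± 0.20, adjusted p = 3.9e-09 from NSPs to 24 h and of 1.77 ± 0.18, adjusted p = 1.69e-06 from 24 h to 72 h (edgeR), and 72 h and 1 week overlapped. Sema3e, which signals through Plxnd1 without a neuropilin, was at 0.190, 0.549 and 0.284 CPM in the NSP libraries, 4.38, 4.47 and 4.97 at 24 h, 35.0, 30.2 and 35.7 at 72 h and 29.3, 29.0 and 32.4 at 1 week. Its 72 h and 1 week libraries lay far above every earlier one, and the log2 fold change from NSPs to 1 week was 6.41 ± 0.26, adjusted p = 1.64e-12 (edgeR), the largest fitted rise of a member beside that of Slit3. Sema3f, a ligand of Nrp2, was at 0.825, 0.604 and 0.455 CPM in the NSP libraries, 6.801, 6.65 and 5.70 at 24 h, 13.1, 11.8 and 10.6 at 72 h and 23.1, 23.02 and 19.7 at 1 week, and no 2 conditions overlapped (5.12 ± 0.42, adjusted p = 8.51e-09, edgeR, 1 week against NSPs). Sema3b, on the same chromosome, was at 1.40, 0.439 and 0.967 CPM in the NSP libraries, 3.85, 5.76 and 5.38 at 24 h, 7.19, 7.36 and 8.47 at 72 h and 10.9, 9.10 and 12.7 at 1 week, likewise without overlap (3.55 ± 0.36, adjusted p = 1.19e-07, edgeR, 1 week against NSPs). Sema3a took another course: it was at 111, 120.4 and 127 CPM in the NSP libraries, 246, 246 and 235 at 24 h, 108, 109 and 121 at 72 h and 62.3, 61.8 and 66.5 at 1 week. Its 24 h libraries were the highest, and those at 1 week the lowest, with log2 fold changes of 1.02 ± 0.15, adjusted p = 1.88e-05 up to 24 h, -1.10 ± 0.15, adjusted p = 2.87e-05 from 24 h to 72 h and -0.83 ± 0.15, adjusted p = 0.002 from 72 h to 1 week (edgeR). Sema3d stayed between 0.190 and 1.82 CPM in the untreated libraries, and its rise to 24 h (1.49 ± 0.48) was lost (adjusted p from 0.0567 to 0.0738 without 24 h replicate 2 or NSP replicate 1).

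The semaphorins of classes 4 to 7 are mostly membrane-bound, and they changed in both directions. Of the 12 tested, 8 were called at 24 h (52.7% of all genes were), 4 higher and 4 lower, and 6 from 24 h to 72 h (24.8% of all genes), 1 higher and 5 lower. Without NSP replicate 1 the same 8 were called at 24 h. Sema4b was at 65.6, 70.0 and 58.1 CPM in the NSP libraries, 14.1, 15.2 and 16.4 at 24 h, 11.05, 14.7 and 10.7 at 72 h and 11.3, 12.3 and 9.58 at 1 week. Sema4c, also of class 4, was at 28.9, 31.6 and 33.6 CPM in the NSP libraries, 10.4, 11.4 and 12.5 at 24 h, 12.7, 13.9 and 13.04 at 72 h and 17.1, 15.9 and 18.03 at 1 week. Every NSP library of both was above every later one, and the log2 fold change to 24 h was -2.09 ± 0.20, adjusted p = 1.07e-07 for Sema4b and -1.45 ± 0.14, adjusted p = 1.48e-07 for Sema4c (edgeR). Sema4c shares 334 bases of exon with D430040D24Rik on the other strand, and the strand setting of the counting is not given in the sources used here. Sema5a, a semaphorin with thrombospondin repeats, was at 14.7, 18.6 and 20.7 CPM in the NSP libraries, 12.1, 10.8 and 12.1 at 24 h, 2.88, 2.09 and 2.09 at 72 h and 2.91, 3.56 and 3.38 at 1 week. Its fall came in 2 steps, with log2 fold changes of -0.63 ± 0.18, adjusted p = 0.00645 up to 24 h and -2.31 ± 0.20, adjusted p = 2.55e-07 from 24 h to 72 h (edgeR). Its relative Sema5b went from 65.6 ± 3.12 to 19.6 ± 2.22 CPM (mean ± SD, n = 3) between NSPs and 72 h, the step from 24 h to 72 h being called. Sema6d, a ligand of Plxna1, was at 277, 234 and 237 CPM in the NSP libraries, 531, 488 and 519.9 at 24 h, 770.0, 896 and 721 at 72 h and 510.0, 564 and 499 at 1 week. It was highest at 72 h in all 3 libraries, with log2 fold changes of 1.04 ± 0.14, adjusted p = 1.08e-05, 0.63 ± 0.14, adjusted p = 0.00299 and -0.60 ± 0.14, adjusted p = 0.0145 over the 3 steps (edgeR), the last of which was lost (adjusted p from 0.065 to 0.0983 without 1 week replicate 1 or 3 or 72 h replicate 2). Sema6b was at 1.71, 2.58 and 2.33 CPM in the NSP libraries, 4.53, 3.97 and 4.56 at 24 h, 2.12, 2.02 and 1.93 at 72 h and 2.56, 2.08 and 3.24 at 1 week, a rise to 24 h and a fall back to the NSP range (0.97 ± 0.30, adjusted p = 0.0113 and -1.10 ± 0.30, adjusted p = 0.0119, edgeR). Sema6a followed the same course at higher counts, with means of 72.5 ± 18.7, 218 ± 63.7 and 86.1 ± 29.8 CPM (± SD, n = 3), and Sema6c, at 8.61 to 13.6 CPM in means up to 24 h, had a log2 fold change of -1.12 ± 0.28, adjusted p = 0.00662 from 24 h to 72 h (edgeR).

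**Figure D3:**
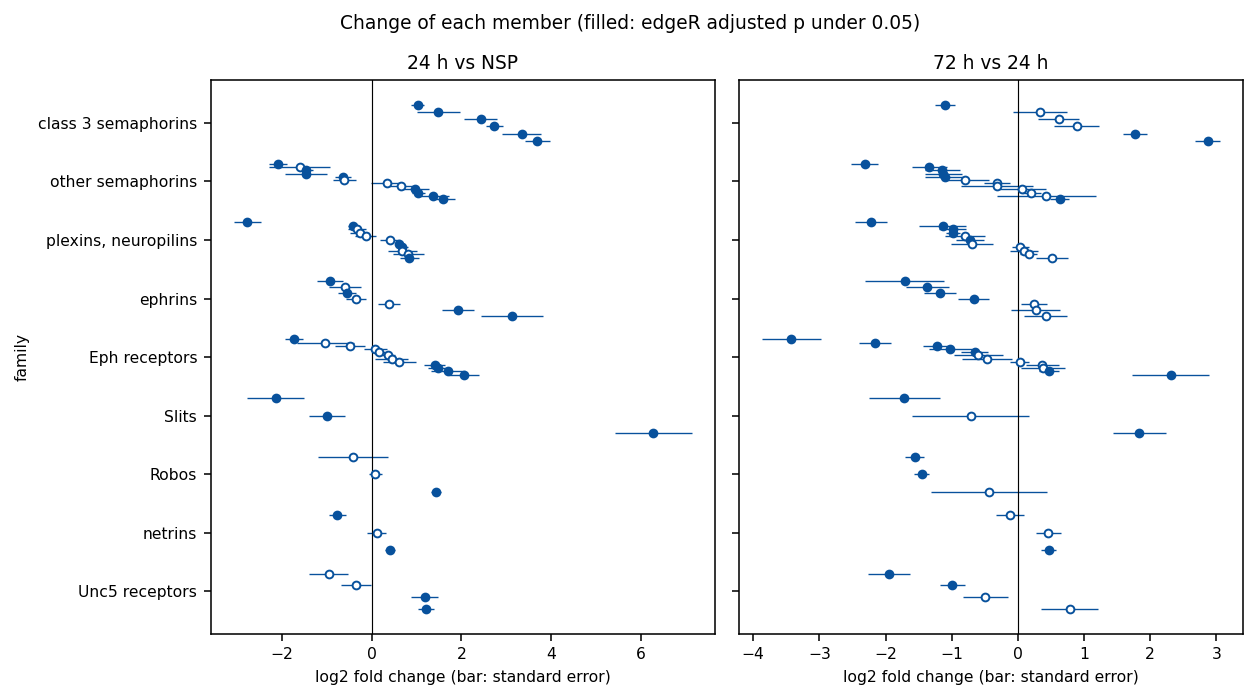
log2 fold change of each tested member (points, bars are standard errors) from NSPs to 24 h (left) and from 24 h to 72 h (right), by family, with filled points for edgeR adjusted p under 0.05. All 6 class 3 semaphorins are filled and to the right of 0 in the left panel, and 25 of the 32 filled points of the right panel are left of 0. The point at 6.28 is Slit3, whose fitted value rests on 2 counts in NSPs.

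Plexins are the signalling receptors of semaphorins, and neuropilins bind class 3 semaphorins beside them. Plxnb3 had the largest fitted fall of a member at 24 h and at 1 week against NSPs: the gene (chrX:73757090-73772514, + strand, GRCm38) was at 43.5, 95.7 and 99.2 CPM in the NSP libraries, 11.2, 11.2 and 12.6 at 24 h, 7.34, 7.12 and 5.72 at 72 h and 2.25, 1.70 and 1.62 at 1 week. NSP replicate 1 was the lowest of its condition but still above every later library, and the log2 fold change was -2.77 ± 0.30, adjusted p = 6.01e-07 at 24 h and -5.40 ± 0.35, adjusted p = 3.39e-10 at 1 week (edgeR, against NSPs). Plxnb2 was at 449, 417 and 424 CPM in the NSP libraries, 637, 667 and 758 at 24 h, 769, 827 and 711 at 72 h and 889, 927 and 863 at 1 week. All differentiated libraries were above all NSP libraries (0.68 ± 0.13, adjusted p = 0.000394, edgeR, 24 h against NSPs), and from 24 h to 72 h the change of 0.16 ± 0.13, adjusted p = 0.418 did not pass. Plxnc1, the receptor of Sema7a, was at 84.1, 86.9 and 95.6 CPM in the NSP libraries, 144, 130.3 and 136 at 24 h, 63.4, 74.2 and 70.2 at 72 h and 35.2, 36.2 and 37.2 at 1 week, with log2 fold changes of 0.62 ± 0.10, adjusted p = 5.89e-05, -0.98 ± 0.10, adjusted p = 1.77e-06 and -0.94 ± 0.10, adjusted p = 2.05e-05 over the 3 steps (edgeR) and no overlap at any of them. Plxna1, a class 3 receptor partner, rose at 24 h (0.84 ± 0.21, adjusted p = 0.00329, log2, edgeR) to a mean of 122 ± 30.5 CPM (SD, n = 3), and 970 bases of its exons overlap Gm26811 on the other strand. Plxna2, Plxna3, Plxna4, Plxnb1 and Plxnd1 had means between 9.82 and 248 CPM in the untreated conditions.

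Both neuropilins fell from 24 h to 72 h (12.6% of all genes did). Nrp1, the receptor subunit for Sema3a, was at 35.3, 33.2 and 36.9 CPM in the NSP libraries, 48.9, 49.1 and 42.8 at 24 h, 9.99, 9.69 and 10.51 at 72 h and 9.19, 8.002 and 10.0 at 1 week. The 72 h and 1 week libraries overlapped each other and were all below the lowest at 24 h, with a log2 fold change from 24 h to 72 h of -2.22 ± 0.24, adjusted p = 2.7e-06 (edgeR). Nrp2, the subunit for Sema3f, was at 10.4, 20.4 and 20.8 CPM in the NSP libraries, 14.9, 13.4 and 13.2 at 24 h, 7.11, 7.06 and 6.77 at 72 h and 3.14, 2.96 and 2.39 at 1 week, where NSP replicate 1 was lower than every 24 h library. It fell from 24 h to 72 h (-0.99 ± 0.21, adjusted p = 0.00177) and from 72 h to 1 week (-1.29 ± 0.22, adjusted p = 0.00146, log2, edgeR). Among the 4 untreated conditions the means of both neuropilins were lowest at 72 h and 1 week, where those of Sema3b, Sema3c, Sema3e and Sema3f were highest.

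Ephrins of the A class are anchored by a lipid and those of the B class span the membrane. Of the 7 tested, 4 (57.1%, against 52.7% of all genes) were called at 24 h, 2 higher and 2 lower, the same 4 without NSP replicate 1, and 4 (57.1%, against 24.8% of all genes) from 24 h to 72 h, all lower. Efnb2 was at 10.7, 7.63 and 7.79 CPM in the NSP libraries, 30.3, 32.8 and 36.0 at 24 h, 44.1, 42.7 and 45.7 at 72 h and 39.9, 48.2 and 33.9 at 1 week. Every differentiated library was above every NSP library, and the log2 fold change from NSPs was 1.92 ± 0.35, adjusted p = 0.0002 at 24 h and 2.23 ± 0.35, adjusted p = 2.97e-05 at 1 week (edgeR). Efnb1 was at 18.6, 22.3 and 21.7 CPM in the NSP libraries, 25.8, 28.2 and 28.0 at 24 h, 10.6, 12.4 and 13.2 at 72 h and 13.03, 9.97 and 13.03 at 1 week, with log2 fold changes of 0.39 ± 0.24, adjusted p = 0.176 to 24 h and -1.18 ± 0.24, adjusted p = 0.00152 from 24 h to 72 h (edgeR). Efna2, an A class ephrin at low counts, was at 2.98, 3.95 and 3.58 CPM in the NSP libraries, 1.74, 2.35 and 1.39 at 24 h, 0.681, 0.736 and 0.715 at 72 h and 0.397, 0.164 and 0.563 at 1 week, with a log2 fold change of -3.24 ± 0.34, adjusted p = 1.93e-07 from NSPs to 1 week (edgeR). Efna5, at the edge of detection in NSPs, was at 0.0635, 0.384 and 0 CPM in the NSP libraries, 1.36, 1.01 and 1.96 at 24 h, 0.757, 0.307 and 0.275 at 72 h and 0.265, 0.987 and 0.282 at 1 week, with log2 fold changes of 3.14 ± 0.69, adjusted p = 0.000985 to 24 h and -1.71 ± 0.60, adjusted p = 0.0425 from there to 72 h (edgeR). The later change was lost (adjusted p from 0.0837 to 0.167 without 24 h replicate 1 or 3 or 72 h replicate 2 or 3).

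Eph receptors prefer ephrins of their own class, with Epha4 as the main exception. Of the 12 tested, 5 (41.7%, against 52.7% of all genes) were called at 24 h, 4 higher and 1 lower, the same 5 without NSP replicate 1, and 7 (58.3%, against 24.8% of all genes) from 24 h to 72 h, 2 higher and 5 lower. Epha4 was at 56.5, 85.3 and 89.1 CPM in the NSP libraries, 332, 341 and 293 at 24 h, 143, 159 and 174 at 72 h and 193, 175 and 213 at 1 week. Its 24 h libraries were the highest, all others of the untreated course lay below them, and 72 h and 1 week stayed above NSPs, with log2 fold changes of 2.06 ± 0.33, adjusted p = 5.32e-05 to 24 h, -1.02 ± 0.32, adjusted p = 0.0255 from 24 h to 72 h and 1.33 ± 0.33, adjusted p = 0.00182 from NSPs to 1 week (edgeR). The fall to 72 h was lost (adjusted p from 0.054 to 0.0752 without 24 h replicate 1 or 2 or any single 72 h library). Epha5 was at 69.8, 130.3 and 132 CPM in the NSP libraries, 326, 288 and 309 at 24 h, 140.3, 127 and 129.9 at 72 h and 61.4, 78.8 and 60.5 at 1 week, with the same peak at 24 h (1.47 ± 0.23, adjusted p = 3.22e-05 to 24 h, -1.22 ± 0.22, adjusted p = 0.000549 after it, edgeR). Ephb1 was at 27.2, 16.8 and 16.1 CPM in the NSP libraries, 52.1, 44.3 and 62.7 at 24 h, 14.2, 12.0 and 9.41 at 72 h and 21.1, 28.6 and 18.3 at 1 week. Epha10, an Eph without kinase activity, was at 0.762, 0.879 and 0.910 CPM in the NSP libraries, 2.80, 2.80 and 2.77 at 24 h, 0.303, 0.245 and 0.220 at 72 h and 0.221, 0.274 and 0.0704 at 1 week. In both the 24 h libraries were above all others of the untreated course, and the log2 fold change from 24 h to 72 h was -2.16 ± 0.24, adjusted p = 3.75e-06 for Ephb1 and -3.42 ± 0.45, adjusted p = 1.92e-05 for Epha10 (edgeR). Exons of these genes overlap a gene on the other strand by 152 bases (Ephb1) and 79 bases (Epha10).

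Ephb3 and Ephb2 moved in opposite directions. Ephb3 was at 57.1, 113 and 115 CPM in the NSP libraries, 28.0, 27.6 and 31.0 at 24 h, 18.1, 20.8 and 16.2 at 72 h and 27.6, 27.0 and 25.3 at 1 week, with NSP replicate 1 below its mates and above every later library. The log2 fold change to 24 h was -1.72 ± 0.20, adjusted p = 1.61e-06 (edgeR). Ephb2 was at 27.4, 26.0 and 27.6 CPM in the NSP libraries, 30.1, 36.3 and 37.7 at 24 h, 51.4, 45.5 and 47.0 at 72 h and 80.5, 80.6 and 82.3 at 1 week, with no overlap from 24 h on, and it rose from 24 h to 72 h (0.47 ± 0.15, adjusted p = 0.0289) and from 72 h to 1 week (0.76 ± 0.15, adjusted p = 0.00362, edgeR). The earlier of these calls was lost (adjusted p from 0.0535 to 0.142 without 24 h replicate 1 or any single 72 h library). Epha7 was highest at 72 h, at 0.317, 0.879 and 0.967 CPM in the NSP libraries, 0.302, 0.168 and 0.652 at 24 h, 2.12, 1.78 and 1.49 at 72 h and 0.530, 0.438 and 0.845 at 1 week, with a log2 fold change of 2.31 ± 0.58, adjusted p = 0.00621 from 24 h (edgeR). Epha3 was at 0.889, 1.21 and 1.37 CPM in the NSP libraries, 1.66, 2.24 and 1.39 at 24 h, 0.832, 1.10 and 1.54 at 72 h and 0.397, 0.329 and 0.282 at 1 week, lowest at 1 week. Epha2 was at 2.48, 1.87 and 2.28 CPM in the NSP libraries, 2.95, 2.96 and 3.10 at 24 h, 2.19, 1.96 and 2.37 at 72 h and 2.52, 2.25 and 2.82 at 1 week, and none of its untreated comparisons was called (edgeR, adjusted p = 0.333 or more). Ephb4, Ephb6 and Epha1 were called in none of the 4 untreated comparisons by edgeR, and their smallest adjusted p was 0.0517.

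The 3 Slits differed from one another. Slit3 was at 0, 0.110 and 0 CPM in the NSP libraries, 3.48, 2.57 and 4.81 at 24 h, 1.51, 0.920 and 0.880 at 72 h and 4.02, 6.52 and 4.30 at 1 week. Over the 3 NSP libraries it had 2 counts against 151 at 24 h and 271 at 1 week, which is a ratio of 89.7 (exact 95% interval 24.4 to 747) and of 127 (34.8 to 1052), intervals that cover counting error only. The 72 h libraries lay between NSPs and 24 h, and the changes at 24 h, 72 h and 1 week were all called by edgeR (adjusted p = 1e-05, 0.0235 and 0.0149), the fall to 72 h being lost with 1 library left out (adjusted p from 0.0518 to 0.104 without 24 h replicate 1 or 3 or 72 h replicate 2 or 3). Slit2 was at 15.7, 26.4 and 27.6 CPM in the NSP libraries, 13.1, 10.2 and 11.7 at 24 h, 47.9, 39.7 and 37.6 at 72 h and 41.5, 48.0 and 46.5 at 1 week. It was lowest at 24 h and about as high at 72 h as at 1 week, with a log2 fold change of 1.84 ± 0.40, adjusted p = 0.00219 from 24 h to 72 h (edgeR). The fall to 24 h of -0.996 ± 0.40, adjusted p = 0.0424 (edgeR) was lost (adjusted p from 0.0678 to 0.123 without any single 24 h library or NSP replicate 2 or 3), and under DESeq2 (adjusted p = 0.0572) or with genes of at least 10 counts in every library (edgeR adjusted p = 0.0787). Slit1 reached at most 1.15 CPM in a library and fell at 24 h (-2.14 ± 0.63, adjusted p = 0.00839, log2, edgeR).

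Among the Robos, the receptors of Slits, Robo2 (gene at chr16:73891839-74411825, - strand, GRCm38) was at 178, 188 and 192 CPM in the NSP libraries, 536, 490.2 and 486 at 24 h, 183, 192 and 178 at 72 h and 146, 157 and 142 at 1 week. The 24 h libraries stood well above all others and those at 1 week were the lowest, with log2 fold changes of 1.44 ± 0.11, adjusted p = 9.95e-09 to 24 h and -1.45 ± 0.11, adjusted p = 6.61e-08 after it (edgeR). Robo1, on the same chromosome (chr16:72308306-73046095, + strand, GRCm38), was at 78.9, 89.1 and 92.6 CPM in the NSP libraries, 95.8, 80.0 and 101 at 24 h, 35.0, 31.8 and 26.9 at 72 h and 46.3, 57.4 and 43.4 at 1 week. NSPs and 24 h overlapped, the fall came between 24 h and 72 h (-1.56 ± 0.15, adjusted p = 7.7e-07, log2, edgeR), and the 1 week libraries lay above those at 72 h and below those at 24 h. Robo3, a divergent Robo of commissural neurons, was at 0.254, 0.110 and 0.114 CPM in the NSP libraries, 0.151, 0.112 and 0.0815 at 24 h, 0, 0.0614 and 0.165 at 72 h and 0.839, 0.822 and 1.27 at 1 week, that is 0 to 4 counts per library before 1 week, and it rose from 72 h, with 4 counts over 3 libraries, to 1 week (3.42 ± 0.59, adjusted p = 0.00147, log2, edgeR).

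The netrins are secreted, laminin-like cues. Ntn1 (gene at chr11:68209364-68400823, - strand, GRCm38) was at 285, 277 and 292 CPM in the NSP libraries, 163, 168 and 173 at 24 h, 217, 258 and 220.3 at 72 h and 352, 329 and 349 at 1 week. The 24 h libraries were lowest, below NSPs (-0.76 ± 0.20, adjusted p = 0.00346, log2, edgeR), and those at 1 week highest, but the later steps did not pass (to 72 h 0.46 ± 0.20, adjusted p = 0.0955 and from there to 1 week 0.57 ± 0.20, adjusted p = 0.0954), nor did 1 week against NSPs (0.27 ± 0.20, adjusted p = 0.243, edgeR). Ntn4, which also binds laminin in basement membranes, was at 31.4, 32.2 and 30.0 CPM in the NSP libraries, 38.5, 41.4 and 44.2 at 24 h, 51.1, 61.0 and 59.4 at 72 h and 71.5, 69.9 and 73.2 at 1 week, a climb without overlap between any 2 conditions (to 24 h 0.41 ± 0.11, adjusted p = 0.00506 and from 24 h to 72 h 0.47 ± 0.11, adjusted p = 0.00414, edgeR), the earlier of which was lost without a filter on low counts (adjusted p = 0.0826). Among the Unc5 receptors, which turn netrin into a repellent, Unc5c was at 7.49, 13.2 and 12.6 CPM in the NSP libraries, 27.4, 27.3 and 22.4 at 24 h, 14.0, 12.8 and 12.1 at 72 h and 6.14, 6.69 and 6.97 at 1 week. Unc5b was at 5.58, 4.56 and 3.81 CPM in the NSP libraries, 9.22, 10.6 and 11.9 at 24 h, 2.57, 3.44 and 2.20 at 72 h and 5.79, 5.43 and 6.41 at 1 week. Both were highest at 24 h in all 3 libraries, with log2 fold changes of 1.21 ± 0.18, adjusted p = 2.91e-05 to 24 h and -0.99 ± 0.18, adjusted p = 0.000564 after it for Unc5c and of 1.19 ± 0.30, adjusted p = 0.0033 and -1.95 ± 0.32, adjusted p = 0.000193 for Unc5b (edgeR). Unc5a was at 5.33, 6.59 and 5.80 CPM in the NSP libraries, 4.01, 4.36 and 5.62 at 24 h, 3.25, 4.05 and 2.64 at 72 h and 3.62, 4.28 and 3.66 at 1 week, and none of its 4 untreated comparisons was called (edgeR, adjusted p = 0.118 or more). Exons of Unc5c and Unc5a overlap genes on the other strand by 118 and 34 bases.

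**Figure D4:**
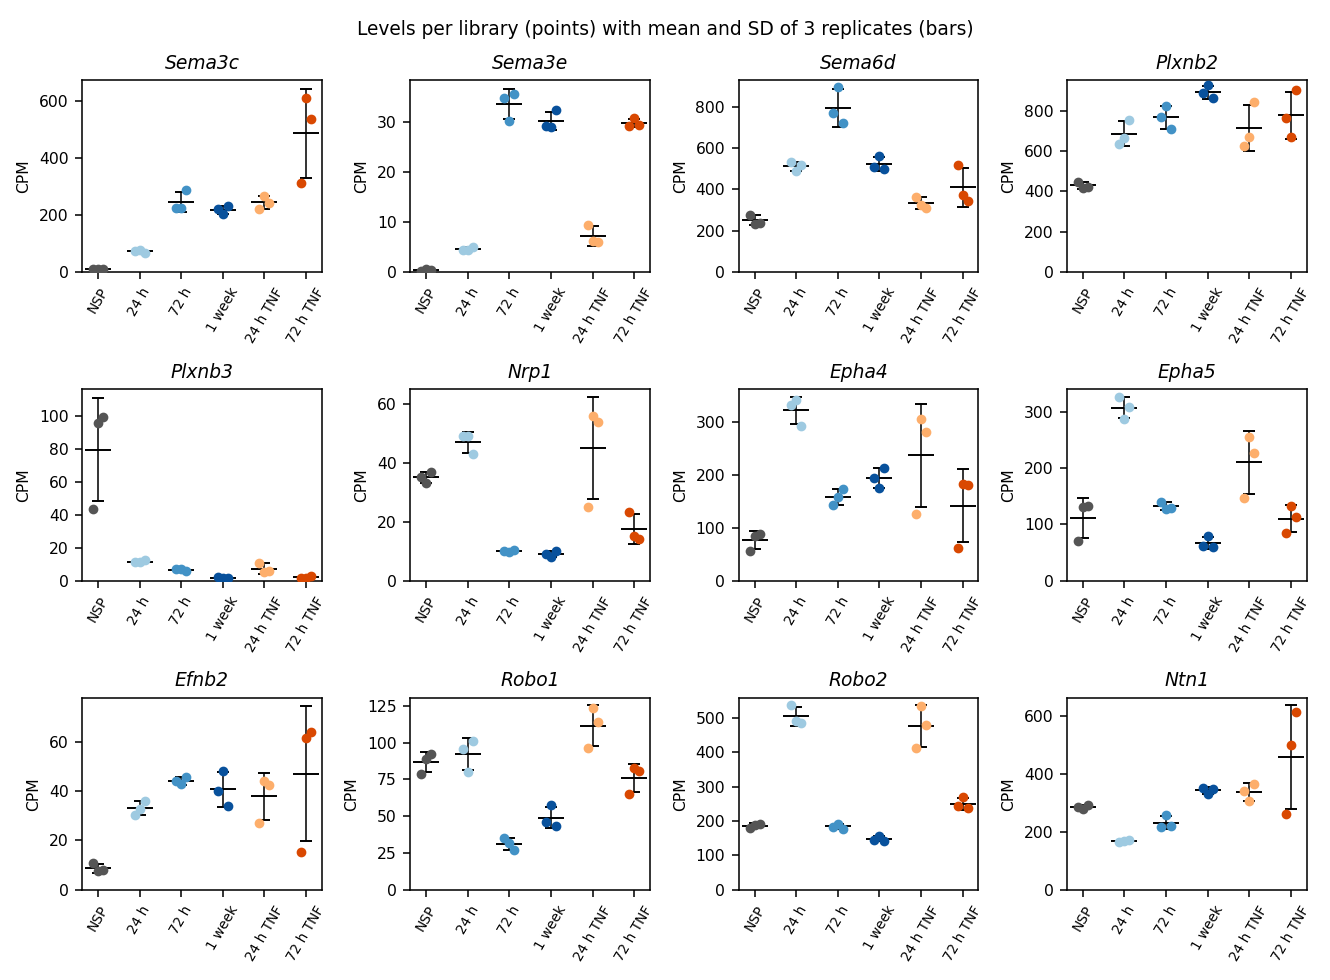
CPM of 12 members in each library (points) with the mean and SD of the 3 replicates (bars), on an axis from 0, in the 4 untreated conditions (grey and blues) and with TNF (oranges). Sema3c and Ntn1 are higher with TNF at both times, Robo1 is higher at 72 h and overlaps at 24 h, and replicate 1 at 72 h with TNF lies below its mates in Efnb2, Epha4 and Ntn1.

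From 72 h to 1 week, 15 members (24.6%, against 6.63% of all genes) were called, 6 higher (2.68% of all genes) and 9 lower (3.96% of all genes), with a median log2 fold change of 0.09 against 0 for all genes. The higher ones were Slit3 (2.18 ± 0.52), Robo3, Unc5b (1.10 ± 0.32), Ephb1 (0.94 ± 0.24), Ephb2 and Robo1 (0.65 ± 0.15), and the lower ones Plxnb3 (-1.83 ± 0.34), Epha3 (-1.76 ± 0.44), Sema3d, Nrp2, Epha5 (-0.98 ± 0.22), Unc5c (-0.98 ± 0.19), Plxnc1, Sema3a and Sema6d (log2, edgeR). With 1 library left out the count was 9 to 14 (2.95% to 6.67% of all genes). Epha3 was lost (adjusted p from 0.0605 to 0.115 without any single 1 week library or 72 h replicate 2 or 3, edgeR), as were Slit3 (adjusted p from 0.0679 to 0.0854 without 1 week replicate 2 or 72 h replicate 2 or 3), Ephb1 (adjusted p from 0.0787 to 0.121 without 1 week replicate 2 or 72 h replicate 2 or 3), Robo1 (adjusted p from 0.0667 to 0.0719 without 1 week replicate 2 or 72 h replicate 3), Epha5 (adjusted p from 0.0604 to 0.0611 without 1 week replicate 1 or 3) and Unc5b (adjusted p from 0.0695 to 0.18 without any single 1 week library or any single 72 h library), and Sema3d was lost too (adjusted p from 0.0715 to 0.371 without any single 1 week library or 72 h replicate 2 or 3, and 0.0652 by DESeq2, 0.0501 with RLE scaling and 0.0648 with a filter at 5 counts in total). Against NSPs, 38 members (62.3%, against 58.6% of all genes) were called at 1 week, 14 higher (29.6% of all genes) and 24 lower (29.1% of all genes), with a median of -0.25 against 0.06. The count was 35 to 37 with 1 library left out (50% to 56% of all genes). It was 35 without NSP replicate 1 (56% of all genes), when Efna3, Plxna2 and Slit2 were lost. The 2 comparisons share the 1 week libraries.

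TNF, which signals through receptors that activate NF-kappa B, was compared with no TNF at each time. At 24 h, 9 members (14.8%, against 3.5% of all genes) were called, 4 higher (2.18% of all genes) and 5 lower (1.32% of all genes), with a median log2 fold change of -0.08 against -0.01. Sema3c was at 222, 266 and 243 CPM with TNF and at 72.1, 77.4 and 66.2 CPM without. All treated libraries were above all untreated ones (1.76 ± 0.18, adjusted p = 1.24e-05, log2, edgeR), and the mean of 243 ± 22.1 CPM (SD, n = 3) was near that at 72 h without TNF, 245 ± 35.9 CPM. Ntn1 was at 341, 305 and 364 CPM with TNF against 163, 168 and 173 CPM, and Ntn4 at 72.1, 60.5 and 60.7 CPM against 38.5, 41.4 and 44.2 CPM. Neither pair of groups overlapped (1.00 ± 0.20, adjusted p = 0.00626 and 0.64 ± 0.11, adjusted p = 0.00214, edgeR). Robo3 was at 1.01, 0.671 and 0.649 CPM with TNF against 0.151, 0.112 and 0.0815 CPM (2.68 ± 0.60, adjusted p = 0.0149, edgeR), a call lost with 1 library left out (adjusted p from 0.0519 to 0.083 without any single 24 h library or 24 h TNF replicate 1).

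Lower with TNF at 24 h were Epha10, Sema6b, Ephb1, Sema6d and Plxnc1. Plxnc1 was at 86.2, 99.8 and 95.9 CPM against 144, 130.3 and 136 CPM (-0.54 ± 0.10, adjusted p = 0.00412, edgeR), and Sema6d at 365, 324 and 310.3 CPM against 531, 488 and 519.9 CPM (-0.62 ± 0.14, adjusted p = 0.018, edgeR). Ephb1 was at 30.0, 29.4 and 27.2 CPM against 52.1, 44.3 and 62.7 CPM (-0.88 ± 0.23, adjusted p = 0.0399, edgeR). The treated libraries of these 3 genes were close together and below every untreated one. Sema6b was at 1.01, 1.34 and 2.89 CPM against 4.53, 3.97 and 4.56 CPM and Epha10 at 0.567, 0.671 and 1.47 CPM against 2.80, 2.80 and 2.77 CPM (-1.30 ± 0.31, adjusted p = 0.0218 and -1.60 ± 0.37, adjusted p = 0.0188, edgeR), with replicate 3 the nearest to the untreated libraries in both. With 1 library left out the count of members called was 4 to 9 (1.74% to 3.59% of all genes). Calls were lost for Ephb1 (adjusted p from 0.0507 to 0.19 without any single 24 h library or any single 24 h TNF library), Epha10 (adjusted p from 0.0625 to 0.0938 without any single 24 h library or 24 h TNF replicate 1 or 2), Sema6b (adjusted p from 0.0549 to 0.105 without any single 24 h library or 24 h TNF replicate 1 or 2) and Sema6d (adjusted p from 0.0559 to 0.0783 without 24 h replicate 1 or 3 or 24 h TNF replicate 2 or 3). Ephb1 was also lost with genes of at least 10 counts in every library (adjusted p = 0.0515) and Sema6b when only the 24 h conditions were in the fit (adjusted p = 0.0923, edgeR). Sema3c, Ntn1, Ntn4 and Plxnc1 kept their call with any 1 library left out. In 24 h TNF replicate 1 the summed mural and fibroblast markers were 96.1 CPM against 496 and 530 CPM in its mates. Acta2 alone was 90.26 CPM of that against 527 and 492.5 CPM in replicates 2 and 3. Rgs5, also among these markers, went the other way, at 4.98 CPM against 2.09 and 2.48 CPM. Gfap in replicate 1 was 1871 CPM against 463 and 597 CPM (864 to 949 CPM without TNF). Without 24 h TNF replicate 1 the count was 7 (2.3% of all genes were called), 5 higher and 2 lower, of which 5 were among the 9. The other 2 were Epha2 (1.30, adjusted p = 0.0124) and Sema3a (0.56, adjusted p = 0.00786, log2 without that library, edgeR), with means of 5.67 ± 3.11 against 3.00 ± 0.0818 CPM and 316 ± 86.0 against 242 ± 6.24 CPM (SD, n = 3). At 24 h the summed oligodendrocyte lineage markers were 116 to 302 CPM with TNF against 293 to 358 CPM without, and the part of these markers in the differences was not tested.

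At 72 h, 12 members (19.7%, against 9.56% of all genes) were called with TNF, 10 higher (4.35% of all genes) and 2 lower (5.21% of all genes), with a median log2 fold change of 0.05 against -0.01. Sema3c was at 311, 608 and 536 CPM with TNF and at 224, 225 and 287 CPM without (0.98 ± 0.18, adjusted p = 0.00126, edgeR). Ntn1 was at 260.4, 499 and 613 CPM against 217, 258 and 220.3 CPM (0.98 ± 0.20, adjusted p = 0.00288, edgeR). For both genes replicate 1 was the lowest treated library and still above the untreated ones. Robo1 was at 65.0, 82.4 and 80.9 CPM against 35.0, 31.8 and 26.9 CPM (1.28 ± 0.15, adjusted p = 1.64e-05, edgeR), Robo3 at 1.92, 0.754 and 1.06 CPM against 0, 0.0614 and 0.165 CPM (3.79 ± 0.58, adjusted p = 0.000271, edgeR) and Robo2 at 242, 270.5 and 238 CPM against 183, 192 and 178 CPM (0.44 ± 0.11, adjusted p = 0.0148, edgeR). All 3 tested Robos were called higher (4.35% of all genes were). Nrp1 was at 23.4, 15.3 and 14.1 CPM against 9.99, 9.69 and 10.51 CPM (0.81 ± 0.24, adjusted p = 0.0387, edgeR), and its ligand Sema3a at 168, 191 and 171 CPM against 108, 109 and 121 CPM (0.65 ± 0.15, adjusted p = 0.00853, edgeR). Epha2 was at 3.94, 4.06 and 7.88 CPM against 2.19, 1.96 and 2.37 CPM and Sema3b at 24.2, 9.87 and 12.7 CPM against 7.19, 7.36 and 8.47 CPM (1.28 ± 0.37, adjusted p = 0.0344 and 1.02 ± 0.29, adjusted p = 0.0343, edgeR). In each of these genes 1 treated library was well above the other 2: replicate 1 in Nrp1 and Sema3b, replicate 3 in Epha2. Efna3, an A class ephrin, was at 6.93, 4.004 and 4.19 CPM against 2.42, 2.21 and 3.41 CPM (0.90 ± 0.23, adjusted p = 0.0174, edgeR), with 344 bases of its exons shared with Gm15998 on the other strand.

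Plxnb3 and Sema6d were lower with TNF at 72 h. Plxnb3 was at 1.80, 1.51 and 2.82 CPM against 7.34, 7.12 and 5.72 CPM (-1.72 ± 0.34, adjusted p = 0.00276, edgeR), where its untreated 1 week libraries were at 2.25, 1.70 and 1.62 CPM. Sema6d was at 518, 372 and 343 CPM against 770.0, 896 and 721 CPM (-0.95 ± 0.14, adjusted p = 0.000247, edgeR), with every treated library below every untreated one. The count was 7 to 14 with 1 library left out (4.67% to 14.2% of all genes). Calls were then lost for Epha2 (adjusted p from 0.0536 to 0.166 without any single 72 h library or 72 h TNF replicate 3), Sema3b (adjusted p from 0.0609 to 0.23 without any single 72 h library or 72 h TNF replicate 1), Efna3 (adjusted p from 0.109 to 0.117 without 72 h replicate 2 or 72 h TNF replicate 1), Nrp1 (adjusted p from 0.0598 to 0.2 without any single 72 h library or 72 h TNF replicate 1), Sema3a (adjusted p = 0.0513 without 72 h replicate 2) and Robo2 (adjusted p from 0.0702 to 0.0722 without 72 h replicate 3 or 72 h TNF replicate 2, edgeR). With only the 72 h conditions in the fit Sema3b (adjusted p = 0.0611) and Efna3 (adjusted p = 0.0976, edgeR) were lost. Without 72 h TNF replicate 1 the count was 10 (6.66% of all genes were called), 8 higher and 2 lower, with Efna3, Nrp1 and Sema3b lost and Plxna2 (0.84, adjusted p = 0.0149, edgeR) gained. The summed astrocyte markers were 3485 to 4888 CPM at 72 h with TNF against 5696 to 8145 CPM without, and the oligodendrocyte lineage markers 106 to 140 CPM against 61.5 to 70.5 CPM. In 72 h TNF replicate 1 the summed mural and fibroblast markers were 54.0 CPM against 188 and 204 CPM in its mates. Acta2 alone was 49.25 CPM of that against 186 and 202 CPM. Rgs5, also among these markers, went the other way, at 4.56 CPM against 2.09 and 1.56 CPM. Gfap in replicate 1 was at 1022 CPM against 217 and 229 CPM, where the untreated 72 h libraries had 1855 to 3172 CPM. The part of these shifts in the differences with TNF was not tested.

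**Figure D5:**
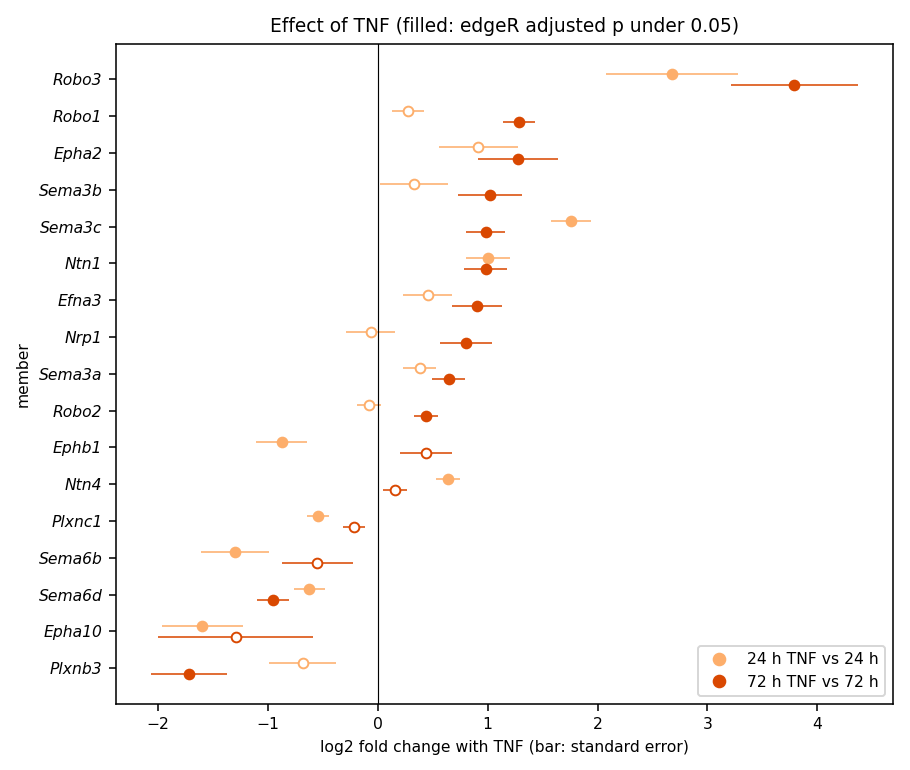
log2 fold change with TNF at 24 h (light) and at 72 h (dark) of the 17 members called at either time (points, bars are standard errors), with filled points for edgeR adjusted p under 0.05. Sema3c, Ntn1 and Robo3 are filled to the right and Sema6d to the left at both times, and Robo1 is filled at 72 h only.

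Sema3c, Ntn1 and Robo3 were called higher and Sema6d lower at both times, in comparisons that share no library. The effect of TNF at 72 h minus that at 24 h was tested as an interaction, and 1 member (1.64%, against 0.458% of all genes), Robo1, was called, with a larger effect at 72 h (0.135% of all genes in that direction). Robo1 was at 96.3, 124 and 114 CPM with TNF and 95.8, 80.0 and 101 CPM without at 24 h, where the groups overlapped (0.27 ± 0.14, adjusted p = 0.433, edgeR). The difference between the 2 effects was 1.01 ± 0.21, adjusted p = 0.0363 (log2, edgeR). It was lost with 1 library left out (adjusted p from 0.0518 to 0.136 without any single 24 h library, 24 h TNF replicate 1 or 3, 72 h replicate 2 or 3 or 72 h TNF replicate 2 or 3), and without 24 h TNF replicate 1 Sema3f was called instead (-1.50, adjusted p = 0.0449, edgeR). With only the 4 conditions of the interaction in the fit its adjusted p was 0.0666 (edgeR). Without 72 h TNF replicate 1, the other library of these conditions that stood apart, the call on Robo1 held. For the other 60 members a difference between the times did not pass, among them Ephb1 (1.31 ± 0.33, adjusted p = 0.0954), which was lower with TNF at 24 h and at 21.6, 13.1 and 13.3 CPM against 14.2, 12.0 and 9.41 CPM at 72 h.

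Other members named for the untreated course had no TNF call at either time. Sema3e was at 9.45, 6.19 and 5.96 CPM at 24 h with TNF and 29.3, 30.8 and 29.4 at 72 h with TNF. Sema3f was at 2.33, 8.28 and 9.73 CPM at 24 h with TNF and 4.51, 4.87 and 8.07 at 72 h with TNF. In Sema3e the 24 h groups did not overlap, although the difference did not pass (0.65 ± 0.19, adjusted p = 0.0813, edgeR), and in Sema3f all 3 treated libraries at 72 h were below the untreated ones (-1.03 ± 0.33, adjusted p = 0.059, edgeR). Efnb2 was at 27.0, 44.0 and 42.7 CPM at 24 h with TNF and 15.5, 61.7 and 63.9 at 72 h with TNF. Slit2 was at 13.7, 9.47 and 9.38 CPM at 24 h with TNF and 8.23, 45.6 and 46.0 at 72 h with TNF. Epha4 was at 126, 305 and 281 CPM at 24 h with TNF and 61.9, 184 and 181 at 72 h with TNF. Replicate 1 was far below its mates at 72 h in all of these 3 genes, and at 24 h in Epha4 and Efnb2. Slit3 was at 0.252, 2.54 and 2.48 CPM at 24 h with TNF and 0.225, 0.348 and 0.751 at 72 h with TNF. Unc5a was at 2.65, 1.12 and 3.07 CPM at 24 h with TNF and 0.676, 1.39 and 2.57 at 72 h with TNF. Unc5a was below its untreated groups at both times without passing (-1.01 ± 0.35, adjusted p = 0.154 at 24 h and -1.11 ± 0.37, adjusted p = 0.0668 at 72 h, edgeR). Plxnb2 was at 627, 672 and 846 CPM at 24 h with TNF and 764, 669 and 903 at 72 h with TNF, overlapping its untreated libraries at both times.

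Other genes of axon guidance signalling were taken from a hand-written list of 68, from further receptors to signalling and actin binding proteins, and all 68 were tested. At 24 h, edgeR called 40 (58.8%, against 52.7% of all genes), 19 higher and 21 lower, and from 24 h to 72 h 34 (50%, against 24.8%), 10 higher and 24 lower. From 72 h to 1 week 15 (22.1%, against 6.63% of all genes) were called, 7 higher and 8 lower, with 1 library left out 3 to 10 (2.95% to 6.67% of all genes), and from NSPs to 1 week 51 (75%, against 58.6%), 20 higher and 31 lower. Without NSP replicate 1, 35 were called at 24 h (49.6% of all genes), 16 higher and 19 lower, and 53 at 1 week against NSPs (56% of all genes), 20 higher and 33 lower. With TNF, 7 (10.3%, against 3.5% of all genes) were called at 24 h, 3 higher and 4 lower, and 14 (20.6%, against 9.56%) at 72 h, 8 higher and 6 lower. These counts were 3 to 6 and 7 to 14 with 1 library left out (1.74% to 3.59% and 4.67% to 14.2% of all genes). They were 6, 2 higher and 4 lower, without 24 h TNF replicate 1 (2.3% of all genes) and 14, 8 higher and 6 lower, without 72 h TNF replicate 1 (6.66% of all genes). edgeR called 0 of the 68 in the interaction (0.458% of all genes were). An unadjusted edgeR p under 0.05 was found there for 9 of the 68, against 2018 of all 20067 genes, and DESeq2 called 2 (1.35% of all genes).

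Dcc, the attractive netrin receptor, fell from a mean of 27.1 CPM in NSPs to 12.8, 1.20 and 0.376 CPM at 24 h, 72 h and 1 week (-6.13 ± 0.35, log2, edgeR, 1 week against NSPs). Draxin, a secreted Dcc ligand, had means of 65.5, 70.4, 8.53 and 1.37 CPM, and Dscaml1 of 18.8, 2.64, 0.140 and 0.0695 CPM. The neuron marker Dcx was at 1.46 to 7.14 CPM in NSPs and at 0 in every 1 week library, and its part in the fall of these genes was not tested. Dcc, Draxin and Dscaml1 were lower at 1 week than in NSPs, where the difference of Ntn1 did not pass. L1cam, an adhesion molecule that serves as a semaphorin co-receptor, was at a mean of 9.71 CPM at 24 h and at 0.445, 0.416 and 0.259 CPM in NSPs, at 72 h and at 1 week. Flrt1, an Unc5 ligand, rose from a mean of 0.698 CPM in NSPs to 11.1 CPM at 1 week (3.98 ± 0.38), and Rnd1, which binds plexins, from 8.37 to 58.1 CPM (2.79 ± 0.36, log2, edgeR). With TNF, Rras, a GTPase switched off by plexins, was higher at 24 h (1.34 ± 0.21) and at 72 h (1.63 ± 0.21, log2, edgeR), Pak3 at 24 h (1.62 ± 0.39) and the adhesion molecule Chl1 at 72 h (1.11 ± 0.16). Draxin was lower at 24 h (-1.61 ± 0.34), and the Eph receptor effector Ngef (-1.15 ± 0.26) and the proteoglycan Gpc1 (-0.86 ± 0.18) at 72 h (log2, edgeR). Pak3 was lost at 24 h (adjusted p from 0.0997 to 0.126 without any single 24 h library or 24 h TNF replicate 1) and Ngef at 72 h (adjusted p = 0.0654 without 72 h replicate 2, edgeR).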

How the data were processed

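RNA-seq counts per gene were deposited as 1 table in which the authors had assigned reads to Ensembl genes for 18 libraries; the submitters' processing notes name Trim Galore, FastQC, STAR, SAMtools, featureCounts and the mm10 build, and the strand setting of the counting is not given in the sources used here. The kit was stranded with ribosomal RNA depleted, and RNA quality numbers were given as a range over all samples (3.4 to 10), per the labels. The table numbers 1 of the 72 h libraries differently from its label, and it was matched by its library suffix. Gene positions and exon lengths came from GENCODE M21 and promoters from RefSeq (GRCm38.p6), where 59 of the 68 members matched.

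Counts were filtered with edgeR's filterByExpr (20067 of 54838 genes kept), scaled by TMM and tested with edgeR 4.0.16 (R 4.3.3) by the quasi-likelihood test over all 6 conditions in 1 fit without covariates, with Benjamini-Hochberg adjustment over all genes tested and a threshold of 0.05. The script was tested on simulated counts. Values in a sentence are the 3 libraries of a condition in the order of their replicate number, and errors of log2 fold changes are standard errors. A value for every library is given for members among the 5 largest changes in either direction of a comparison (called, at least 1 CPM in the higher condition, no overlap) and for the highest member per kilobase on each side of the 4 ligand and receptor systems, and further members are named beside them. Up to 3 genes per direction and comparison come from the wider list. The members and lists were chosen with earlier results of these data known. Alternatives were DESeq2 1.42.0, RLE scaling, other filters, fits restricted to the conditions of a comparison, blocking on the replicate number, a minimum fold change, and leaving out each library.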

Additional observations from a re-analysis of the deposited data

Results flagged for a closer look

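The effect of TNF on Robo1 differed between the times by a test of the difference itself: the log2 effect at 72 h exceeded that at 24 h by 1.01 ± 0.21 (SE, n = 3 per condition, edgeR adjusted p = 0.0363). All 3 treated libraries were above all 3 untreated ones at 72 h, and at 24 h the groups overlapped. The call was lost when any of 9 of the 12 libraries was left out.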

How the results depend on the processing

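No named member reversed its direction under any alternative. With 1 library left out, the count of members called ranged from 33 to 36 (24 h against NSPs), 25 to 29 (72 h against 24 h), 9 to 14 (1 week against 72 h), 35 to 37 (1 week against NSPs), 4 to 9 (TNF at 24 h), 7 to 14 (TNF at 72 h) and 0 to 1 (interaction), and for the wider list from 34 to 38, 26 to 30, 3 to 10, 46 to 53, 3 to 6, 7 to 14 and 0 to 0. For the comparisons without TNF, the share of all genes called was 43.1% to 49.6%, 16.9% to 25.2%, 2.95% to 6.67% and 50% to 56% in that order. With TNF it was 1.74% to 3.59% at 24 h and 4.67% to 14.2% at 72 h, and 0.121% to 0.646% in the interaction. Over the named members and settings, 279 calls held and 63 were lost, in the same direction, with 1 library left out, and 414 held and 17 were lost under other settings.

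Without a filter on low counts the members called were 23 at 1 week against 72 h, 16 with TNF at 24 h and 5 in the interaction (5.4%, 3.65% and 1.47% of all 37635 genes then tested), and those of the wider list 16 with TNF at 24 h and 4 in the interaction. DESeq2 called 3 members in the interaction and 18 with TNF at 72 h, and of the wider list 12 with TNF at 24 h and 2 in the interaction (1.35% of all genes in the interaction, 11.4% at 72 h and 4.83% at 24 h). A fit of only the groups compared called 0 members in the interaction (0.197% of all genes). Also requiring a log2 change of 1 or more left 7 members at 1 week against 72 h and 5 at each time with TNF, and of the wider list 17, 15, 7, 29, 4 and 3 in the order above (of all genes 28.8%, 13.4%, 3.53%, 35%, 1.86% and 4.92%). The alternatives for the wider list were added after seeing the data, and the causes of these shifts were not tested.

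The replicate numbers did not pair the libraries (mean correlation of deviations -0.096 to 0.055, in no comparison above 0.1 for every pair). With the replicate number as a block the counts were 40, 31, 13, 38, 9, 11 and 1 (of all genes 52%, 24.1%, 6.17%, 58.2%, 3.24%, 9.04% and 0.324%). With the 72 h library whose number differs between table and label unpaired, they were 9 at 1 week against 72 h (8 of the wider list) and 0 in the interaction (3.07% and 0.12% of all genes).

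Members near the detection limit (Robo3, Sema3d, Efna5, Slit3 in NSPs, Epha10) rest on few counts per library, and the exact intervals of the Slit3 ratios cover counting error only. With 3 libraries per condition, differences smaller than the spread between replicates were not detectable.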

Other observations

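Axon guidance genes are long: the median span of the 68 members was 45058 bases against 17330 bases for the 21998 protein-coding genes, and 31 members (45.6%, against 11.3%) spanned over 0.1 Mb. The 75 RefSeq promoter windows of the 59 matched members held a median of 19 CG dinucleotides, the same as the promoters of genes tested. The TATA letters TATAAA were in 2 of the 75 windows (2.67%, against 7.66% of the promoters of genes tested) and the GC box letters GGGCGG in 53 (70.7%, against 58.7%), both read on both strands. A kappa B motif was found in 8 windows (10.7%, against 10.3%), of which none were among the 12 windows of the 9 matched members that were higher with TNF, and 1 was among the 8 windows of the 6 that were lower. A match is a description of letters in a window and not a site.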
